A study of Homo sapiens with 4 samples.

Results

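The mature miRNAs described here are the miR-30 family strands that no transfected plasmid encoded, namely both strands of miR-30b, miR-30c and miR-30e. They were taken from the read table by name, and 7 names were found (hsa-miR-30b-5p, hsa-miR-30b-3p, hsa-miR-30c-5p, hsa-miR-30c-1-3p, hsa-miR-30c-2-3p, hsa-miR-30e-5p and hsa-miR-30e-3p, written without the prefix from here on), out of 1644 names in the table and 1608 that belong to none of the pri-miRNA constructs whose sequences were deposited. Small RNA was sequenced from HCT116, an established human colorectal carcinoma cell line, after transfection of 9 µg of plasmid, each condition giving a single library. The libraries are called empty vector, wild type, mutant 1 and mutant 2. The empty vector library received pCDNA3 alone. The wild-type library received 1 µg each of 8 plasmids (for miR-30a, miR-30d, miR-128-1, miR-142, miR-200b, miR-342, miR-576 and miR-885) and 1 µg of a pri-mir-16-1 plasmid. The mutant 1 library received variants of the same 8 pri-miRNAs, among them pri-mir-30a with wobble pairs in the seed region and pri-mir-30d with a seed mismatch made by a single nucleotide polymorphism, with the same pri-mir-16-1 plasmid. The mutant 2 library received 7 µg of empty vector beside pri-mir-16-1 and 1 variant of pri-mir-342. The 2 mutant mixtures were matched to these library names by the order in which the study's methods list them, which is not stated in the labels; the 5p strand of the mutant pri-mir-30a had 516138 reads in mutant 1 and 29 in mutant 2.

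Each pri-miRNA hairpin is cut first by Microprocessor, the complex of DROSHA and DGCR8, and then by DICER, which leaves a duplex of a 5p strand and a 3p strand. DROSHA sets the start of the 5p strand and DICER the start of the 3p strand. One strand is kept in an Argonaute protein as the guide, while the passenger strand is mostly degraded, and the bases just after the start of the guide form the seed that pairs with mRNA targets. The miR-30 family comprises miR-30a to miR-30e, which share 1 seed on their 5p strands, and it is known for roles in epithelial differentiation, autophagy and the epithelial-mesenchymal transition. The endogenous members therefore serve here as a background for the family members that were placed on plasmids.

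The 5p strands of miR-30c and miR-30e are printed with that of miR-30a, since the seed (bases 2 to 8, in capitals) is what joins the untransfected and the transfected members. The sequences came from RefSeq (GRCh38.p14) and run 5′ to 3′.
miR-30e-5p: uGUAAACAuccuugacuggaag
miR-30c-5p: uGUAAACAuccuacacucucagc
miR-30a-5p: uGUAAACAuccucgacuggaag
miR-30a-5p and miR-30e-5p differed at a single base, C13U, counted from 1 at the 5′ end of miR-30a-5p. This base lies outside the seed, and the sequence of miR-30e-5p matched the genome exactly at 1 place, so full-length reads of the transfected miR-30a and of the endogenous miR-30e were separable by that base alone.

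The 3p strands are printed next, because those shown fall into 2 seed groups, whereas the 5p strands shown share 1.
miR-30e-3p: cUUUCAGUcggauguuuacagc
miR-30a-3p: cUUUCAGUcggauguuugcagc
miR-30c-1-3p: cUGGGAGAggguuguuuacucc
miR-30c-2-3p: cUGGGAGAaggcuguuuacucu
miR-30e-3p shared the UUUCAGU seed with miR-30a-3p, from which it differed by G18A. The 3p strands of the 2 miR-30c loci shared the UGGGAGA seed, which 1 further human mature miRNA of the sequence table carried (miR-6788-5p), and differed from each other at 3 bases (G9A, U12C and C22U, with miR-30c-1-3p as the reference).

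Both hairpins of chromosome 1 are shown with their mature strands in capitals, since the bases that follow the 5p strand of MIR30E carry the extended 3p end described further on.
MIR30E: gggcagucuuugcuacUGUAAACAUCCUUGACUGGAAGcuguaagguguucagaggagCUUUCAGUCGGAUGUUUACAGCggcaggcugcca
MIR30C1: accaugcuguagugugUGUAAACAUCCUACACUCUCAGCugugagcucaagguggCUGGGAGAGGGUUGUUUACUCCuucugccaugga
In GRCh38, MIR30E lies at chr1:40754355-40754446 and MIR30C1 at chr1:40757284-40757372, both on the plus strand. Both are in intron 5 of the canonical transcript of NFYC, which encodes a subunit of the transcription factor NF-Y, and none of the 16 NFYC transcripts that span them has an exon there. MIR30C2 lies on the minus strand at chr6:71376960-71377031 in intron 3 of LINC00472, a long non-coding RNA gene, and an exon of 1 of the 9 spanning transcripts overlaps it. MIR30A, which was on a plasmid in the wild-type and mutant 1 libraries, lies in the same intron at chr6:71403551-71403621.

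The libraries held 14544516 (empty vector), 17364117 (wild type), 19834361 (mutant 1) and 17136599 (mutant 2) miRNA reads, of which 92.0%, 70.5%, 70.7% and 88.3% came from miRNAs outside the deposited set of construct sequences, called untransfected. That set also holds pri-let-7d, pri-mir-182 and pri-mir-513b, which the listed mixtures do not name, so their native strands were left out as well. Levels below are reads per 1000000 untransfected miRNA reads (RPM), because plasmid-derived reads took unequal shares of the libraries. The colon epithelial miRNAs miR-200c-3p, miR-141-3p and miR-192-5p were abundant (1791 to 12683 RPM), miR-194-5p was lower (31.8 to 34.4), and the muscle and neuronal miRNAs miR-1-3p, miR-133a-3p and miR-124-3p had 0 reads. Each of the last group comes from more than 1 locus, so reads of it may have been removed by the authors' requirement of an unambiguous alignment, which was not tested. The liver and blood miRNAs miR-122-5p, miR-223-3p and miR-451a were at 0.570 to 2.71 RPM, whereas the endothelial miR-126-3p was at 238 to 286 RPM. With 1 library per condition there is no replicate error and no p-value. The 95% intervals cover counting error only, PCR reads without molecular identifiers are not independent molecules, and each comparison is between libraries, not conditions.

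The 7 strands together made up 1.66%, 1.79%, 1.94% and 1.80% of the untransfected reads in the empty vector, wild-type, mutant 1 and mutant 2 libraries. These shares rested on 221663, 219636, 271492 and 271749 reads over 84 isoforms. By counted reads, miR-30b, miR-30c and miR-30e were thus a small and nearly even fraction of the endogenous miRNAs.

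Among the guide strands, miR-30e-5p was the most abundant member by far. It had 14006 RPM with the empty vector, 15335 in wild type, 16868 in mutant 1 and 15419 in mutant 2 (mean 15407 ± 1169, SD over the 4 libraries). The empty vector library was the lowest and the mutant 1 library the highest, 1.20 times the lowest. This placed miR-30e-5p between rank 11 and rank 15 of the untransfected miRNAs, in the company of the most highly expressed miRNAs of the cell line.

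miR-30b-5p came second, with 1778, 1959, 1892 and 1865 RPM in the same order of libraries (mean 1874 ± 74.9). Here the wild-type library was the highest, and the spread between the highest and the lowest library was only 1.10 times. miR-30b-5p held rank 46 or 47 in every library. Its hairpin gene, MIR30B, is on the minus strand of chromosome 8 (134800520 to 134800607 in GRCh38), inside a gene without a symbol. Its mean was 8.22 times below that of miR-30e-5p, and their ranges did not overlap.

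miR-30c-5p was almost absent from the table. It had 8, 11, 10 and 8 reads, or 0.598, 0.899, 0.713 and 0.529 RPM. These counts lay just above the floor of 3 reads, and the libraries could not be told apart by them: the ratio of the wild-type to the empty vector library was 1.5, with an interval of 0.605 to 3.74. The mature sequence has 2 exact matches in the genome, at MIR30C1 and at MIR30C2, whereas each of the other sequences printed above has 1. The authors kept only reads that aligned unambiguously, and the part of that step in the low count was not tested, so the count is no measure of how much miR-30c-5p the cells held.

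The few reads of miR-30c-5p were split between the annotated start and the start 1 nt upstream. In each library, reads with the annotated start and reads that started 1 nt upstream and ended at the same place, 1 nt past the annotated end, had equal counts (3, 5, 4 and 4 reads of each). The base just before the strand is G at MIR30C1 and C at MIR30C2, so a read that starts 1 nt upstream can belong to 1 locus alone, whereas a read at the annotated start matches both. What the equal counts stand for was not tested.

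All 3p strands were lower than the 5p strands of miR-30e and miR-30b, though miR-30c-1-3p lay above the 5p strand of miR-30c. miR-30e-3p was the highest 3p strand, at 716 RPM with the empty vector and 593, 544 and 617 in the wild-type, mutant 1 and mutant 2 libraries (mean 618 ± 72.1). miR-30c-1-3p had 39.4, 32.2, 30.3 and 33.8 RPM (mean 33.9 ± 3.92). miR-30b-3p had 25.3, 20.4, 19.2 and 20.5 RPM (mean 21.4 ± 2.67). In each of these 3 strands the empty vector library was the highest and the mutant 1 library the lowest. miR-30c-2-3p had 3, 2, 3 and 2 reads, at the floor, and no ratio is given for it.

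The order of the 7 levels was thus miR-30e-5p, miR-30b-5p, miR-30e-3p, miR-30c-1-3p, miR-30b-3p, miR-30c-5p and miR-30c-2-3p, and the ranges of neighbours over the 4 libraries were apart at every step. The steps to miR-30c-5p (8 to 11 reads per library) and to miR-30c-2-3p (2 or 3 reads) rest on few reads, so counting error limits them. The count of miR-30c-5p is, as said above, no measure of its amount in the cells. The narrowest step was between miR-30c-1-3p and miR-30b-3p, whose means differed 1.59 times. The widest by counted reads lay between miR-30b-3p and miR-30c-5p, at 31.2 times. These are orders of read levels: the annotated strands printed above are 22 or 23 nt long, no length scaling was applied, and differences in how well each RNA is ligated and amplified are part of the levels.

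**Figure D1:**
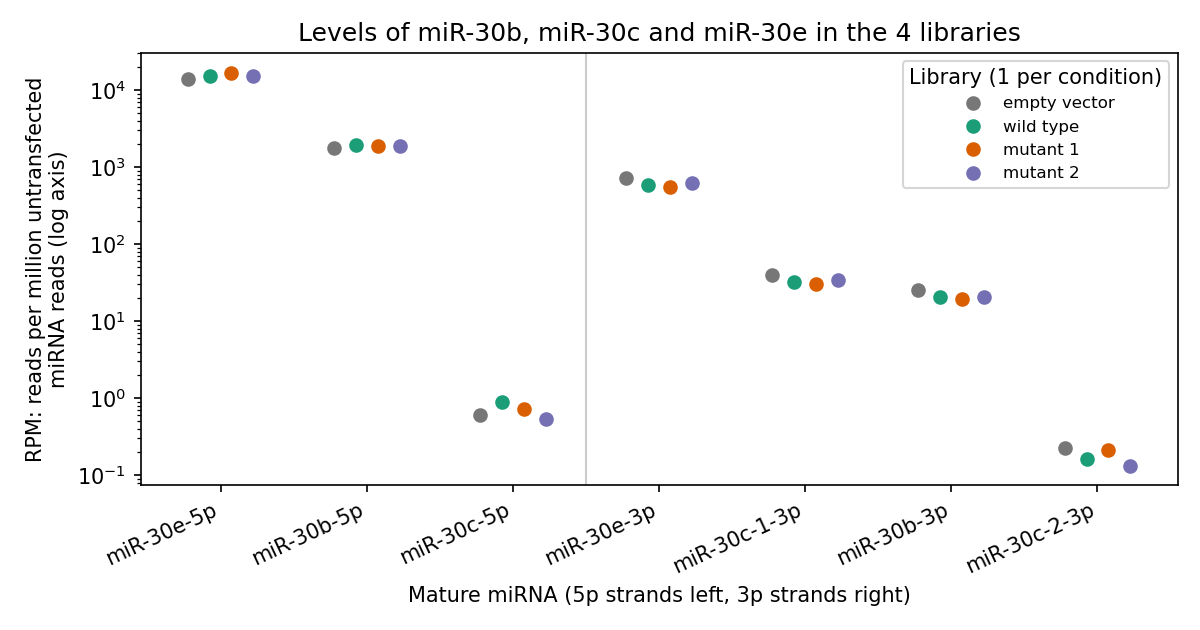
Levels of the 7 strands in RPM (log axis), with 5p strands on the left, 3p strands on the right and 1 point per library. miR-30e-5p stood at 14006 or above in each library, and miR-30c-5p lay below 1. The empty vector point was the highest for each of the 3 3p strands with counts above the floor.

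The first comparison asked whether the endogenous members stayed at their level when wild-type pri-mir-30a and pri-mir-30d, along with the other pri-miRNAs, were transfected. Of the 7 members, 5 averaged 50 reads or more and entered it. None of the 5 passed 2-fold in wild type relative to the empty vector, against 9 of 476 untransfected miRNAs, which is 1.89%. On the scale of the study, miR-16-5p reads, 3 of the 5 were past 2-fold and lower in wild type, 3 in mutant 1 and 5 in mutant 2, but so were 43.7%, 57.1% and 78.8% of the 476 untransfected miRNAs in either direction, so that these counts say nothing particular about the members. miR-30e-5p was at 1.09 times its empty vector level (1.09 to 1.10) and miR-30b-5p at 1.10 times (1.08 to 1.12). Relative to the median of all untransfected miRNAs, these 5p strands differed by 0.04 and 0.05 on the log2 scale. The 3p strands lay below the median: miR-30e-3p was at 0.829 times its empty vector level (0.804 to 0.855), miR-30c-1-3p at 0.817 (0.717 to 0.931) and miR-30b-3p at 0.808 (0.687 to 0.952). Among the 476 miRNAs, 9.03%, 7.56% and 6.72% had a ratio below these 3.

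In the other comparisons with the empty vector, the 3p strands of these members were again the lower ones; these comparisons share that 1 library with the first and are not independent of it. Over the 124 hairpins with both strands measured, the minor strands were lower than with the empty vector in 43 in wild type, 62 in mutant 1 and 47 in mutant 2, with median log2 ratios of 0.16, -0.01 and 0.09. Of the 5 members, 0 passed 2-fold in mutant 1, beside 19 of 476 untransfected miRNAs (3.99%). miR-30e-5p was at 1.20 times (1.20 to 1.21), above 76.3% of the untransfected miRNAs, and miR-30b-5p at 1.06 times (1.05 to 1.08). miR-30e-3p, miR-30c-1-3p and miR-30b-3p were at 0.760 (0.738 to 0.784), 0.769 (0.677 to 0.874) and 0.762 (0.649 to 0.894). In this comparison 22.5%, 23.7% and 22.9% of the untransfected miRNAs had a lower ratio. The 3 ratios were nearly equal although the strands come from 3 hairpins on 2 chromosomes.

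In mutant 2, which received no miR-30 plasmid, 0 of 5 members passed 2-fold, beside 8 of 476 (1.68%). miR-30e-5p was at 1.10 times the empty vector level (1.09 to 1.11) and miR-30b-5p at 1.05 times (1.03 to 1.07). The 3p strands were again lower, at 0.862 for miR-30e-3p (0.838 to 0.887), 0.859 for miR-30c-1-3p (0.761 to 0.970) and 0.811 for miR-30b-3p (0.695 to 0.946), with 19.2%, 18.1% and 11.4% of the untransfected miRNAs below them. The lower 3p levels were therefore present with and without a miR-30 plasmid, and a difference common to the 3 plasmid libraries cannot be told apart from a property of the single empty vector library. The 3 mixtures share the pri-mir-16-1 plasmid, and miR-16-5p stood at 2.05, 2.07 and 2.45 times its empty vector level in the wild-type, mutant 1 and mutant 2 libraries.

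Mutant 1 against wild type compared the libraries whose plasmids differ by the mutations. Again 0 of 5 members passed 2-fold, beside 11 of 476 untransfected miRNAs (2.31%). miR-30e-5p was at 1.10 times its wild-type level (1.09 to 1.11), 0.29 above the median log2 ratio of all untransfected miRNAs. miR-30b-5p was at 0.966 times (0.949 to 0.983), miR-30e-3p at 0.917 (0.888 to 0.947), miR-30c-1-3p at 0.941 (0.821 to 1.08) and miR-30b-3p at 0.943 (0.794 to 1.12). For the last 2 strands the interval included 1, and their depth of 250 to 425 reads could not show a difference of this size.

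**Figure D2:**
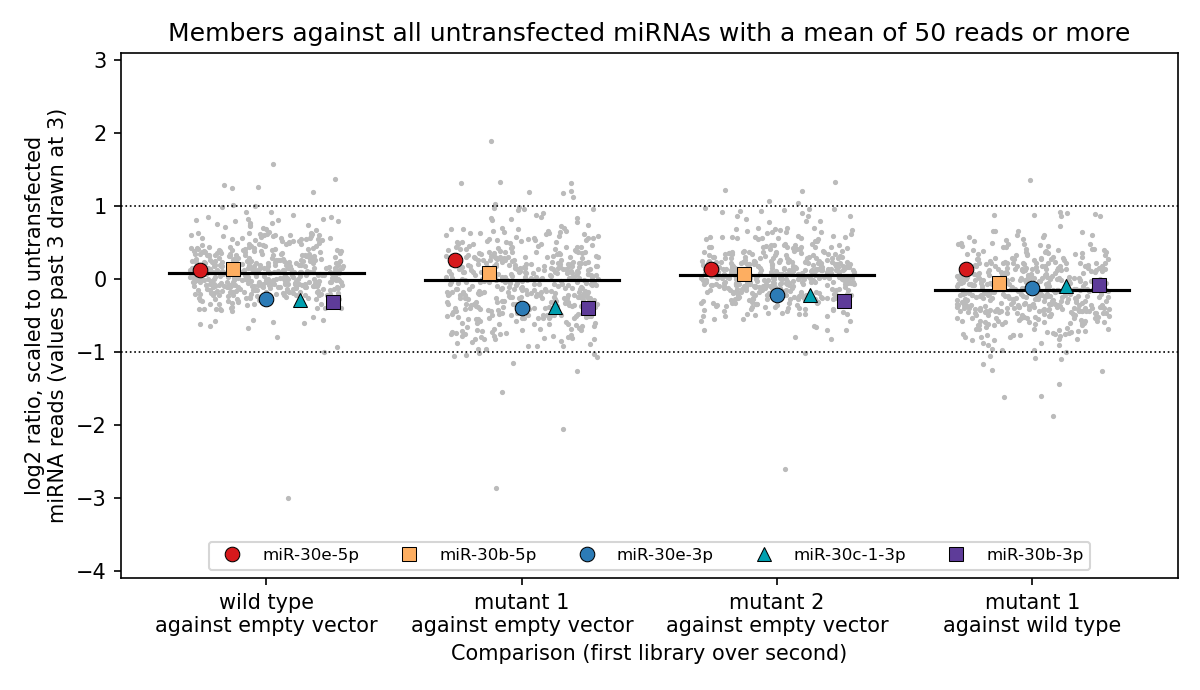
Log2 ratios of the 5 members that averaged 50 reads or more (coloured symbols) over all 476 untransfected miRNAs (grey points), with black lines at the medians and dotted lines at 2-fold. In the 3 comparisons with the empty vector the 5p strands lay near or above the median and the 3p strands below it, and no member crossed a dotted line.

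The direction of several of these ratios depended on the scale. The study divided by miR-16-5p, but the pri-mir-16-1 plasmid was in every mixture except the empty vector, and on that scale the median log2 ratio of the 476 miRNAs was -0.95, -1.07 and -1.23 in the wild-type, mutant 1 and mutant 2 libraries against the empty vector. Scaled to all miRNA reads, these medians were -0.30, -0.40 and 0.00. Of 20 pairs of a member and a comparison, 10 changed direction between scales, among them every ratio of miR-30e-5p and miR-30b-5p to the empty vector. A scale moves all miRNAs of a library alike, so each member's difference from the median log2 ratio was the same on all 5 scales, for example 0.04 for miR-30e-5p and -0.36 for miR-30e-3p in wild type against the empty vector. The 3p strands were lower than with the empty vector on each of the 5 scales run. For miR-30e-3p the ratio to the empty vector ranged over the scales from 0.404 to 0.829 in wild type, from 0.367 to 0.828 in mutant 1 and from 0.351 to 0.862 in mutant 2. miR-30e-5p was higher in mutant 1 than in wild type on every scale (1.09 to 1.30 times), while the other 4 members changed direction there.

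The ratio of the 5p to the 3p strand of a hairpin needs no scale, since both are counted in 1 library. This comparison was chosen after the lower 3p levels had been seen. miR-30e had 19.6 reads of its 5p strand per 3p read with the empty vector, and 25.8, 31.0 and 25 in the wild-type, mutant 1 and mutant 2 libraries. miR-30b had 70.4 with the empty vector and 95.9, 98.3 and 91.1 in the other libraries. For both hairpins the empty vector library was the lowest of the 4.

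Against the empty vector, the log2 ratio of the major to the minor strand of miR-30e was higher by 0.40 in wild type (0.36 to 0.45), by 0.66 in mutant 1 (0.62 to 0.71) and by 0.35 in mutant 2 (0.31 to 0.40). That of miR-30b was higher by 0.45 (0.21 to 0.68), 0.48 (0.25 to 0.71) and 0.37 (0.15 to 0.60). Over the 124 untransfected hairpins in which both strands averaged at least 50 reads, the medians of this difference were -0.09, -0.13 and -0.03. The strand ratio was higher than with the empty vector in 39.5%, 44.4% and 47.6% of these hairpins, and 75.8% to 87.1% of them had a smaller difference than miR-30b or miR-30e. Thus the 2 hairpins lay in the upper part of the distribution, but not at its edge. For mutant 1 against wild type, where 43.5% of hairpins had the higher ratio, miR-30e differed by 0.26 (0.21 to 0.31), and the interval of miR-30b included 0 (0.04, from -0.21 to 0.28).

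miR-30d, which was on a plasmid in the wild-type mixture and, with the seed mismatch, in that of mutant 1, was set beside them. It had 61.0 reads of its 5p strand per 3p read with the empty vector, 82.9 in mutant 1 and 65.7 in mutant 2, but 30.1 in wild type, where miR-30d-5p stood at 3.97 times its empty vector level (3.95 to 3.99). In the mutant 1 value the 5p reads were not split by plasmid or native origin, and the 3p reads include 109 of the mutant 3p strand. The native 3p strand, miR-30d-3p, without those reads, stood at 0.688 (0.651 to 0.728) and 0.869 (0.825 to 0.915) times the empty vector level in the mutant 1 and mutant 2 libraries.

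**Figure D3:**
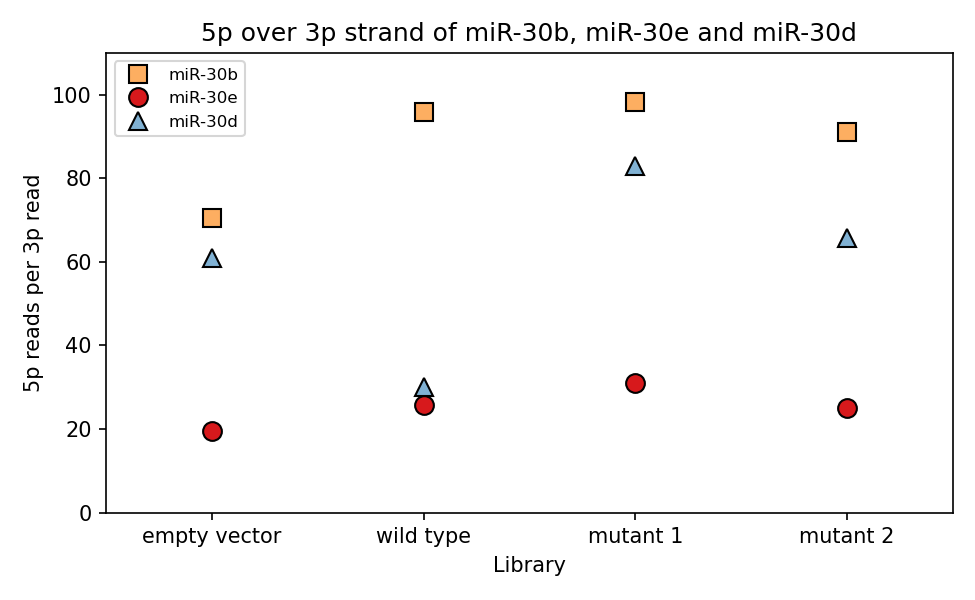
Reads of the 5p strand per read of the 3p strand for miR-30b, miR-30e and miR-30d, with 1 symbol per library. For miR-30b and miR-30e the empty vector library was the lowest (70.4 and 19.6). miR-30d was lowest in wild type (30.1), which received its wild-type plasmid, and highest in mutant 1 (82.9), which received the plasmid with the seed mismatch.

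By share of reads, 2 of the 3 hairpins kept over 90% of their reads in the 5p strand in every library, which 37 of 124 untransfected hairpins did (29.8%). The 5p share of miR-30b was 98.6%, 99%, 99% and 98.9%, and that of miR-30e was 95.1%, 96.3%, 96.9% and 96.2%. miR-30c was the exception, with 1.49% (0.755 to 2.91), 2.70%, 2.28% and 1.53% of its reads in the 5p strand. The 3p reads of miR-30c were nearly all miR-30c-1-3p, whose sequence is unique in the genome, whereas its 5p sequence is not. The strand share of miR-30c was for this reason not read as a preference.

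The members were also set beside the transfected family members, as shares of all reads named for a native 5p strand of the family, whatever their start. With the empty vector, miR-30b, miR-30c and miR-30e made up 54.0% of 391440 family reads (53.8 to 54.1), of which miR-30e-5p alone was 47.9% and miR-30b-5p 6.08%. miR-30d-5p made up 45.2% and miR-30a-5p only 0.860%. By reads, the endogenous family was thus mainly miR-30e and miR-30d.

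In wild type the family reads came to 1998184, and the share of miR-30b, miR-30c and miR-30e was 10.6%. miR-30a-5p stood at 57.3% of the family reads and miR-30d-5p at 32.1%. In the mutant 1 and mutant 2 libraries the share of the untransfected members was 58.6% (58.5 to 58.7) and 57.8% (57.7 to 58.0), with miR-30a-5p at 0.803% and 0.857%. In mutant 1 the transfected pri-mir-30a gave 516138 reads of a 5p strand with a mutant seed, which are named apart and were not counted here, and 36288 reads of miR-30a-3p, against 75 with the empty vector.

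The difference of miR-30a-5p between wild type and the empty vector was set beside that of miR-30e-5p, its near-identical relative. miR-30a-5p was 93219 RPM higher than with the empty vector and miR-30e-5p 1329 RPM higher, or 1.43% of the former. The direction of the second difference depended on the scale: miR-30e-5p was at 0.839 times its empty vector level on all miRNA reads and at 0.534 times on miR-16-5p. In mutant 2, where miR-30a-5p was at 1.02 times its empty vector level in RPM (0.972 to 1.07), miR-30e-5p was at 1.10 times in RPM and at 0.449 to 1.10 times over the 5 scales.

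**Figure D4:**
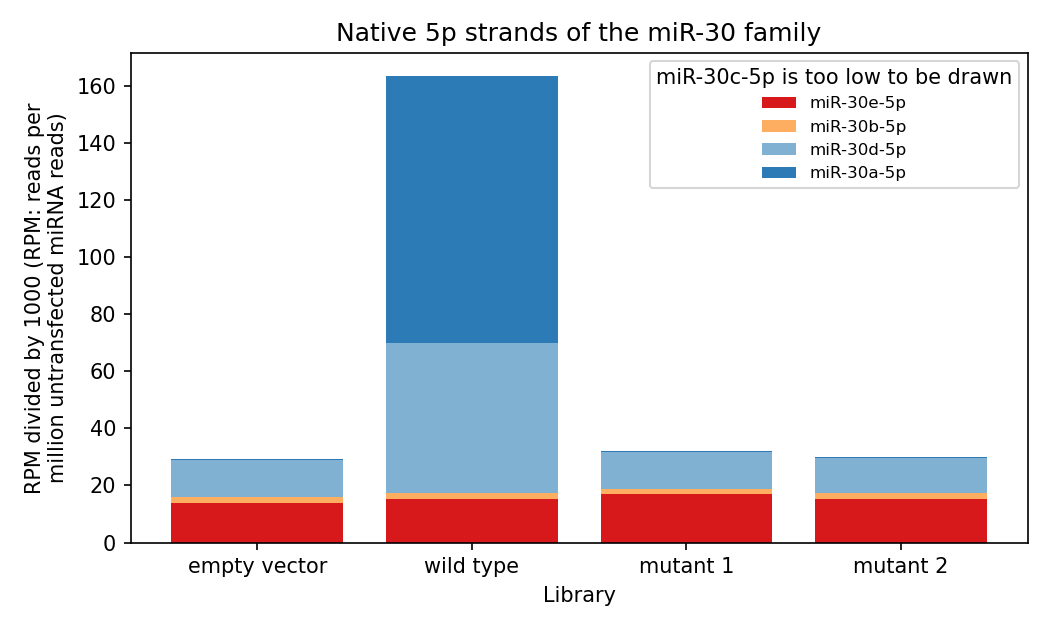
Stacked levels of the native 5p strands of the family, in RPM divided by 1000, for the 4 libraries. The miR-30e-5p and miR-30b-5p parts of the bars were alike in height across libraries, and the taller wild-type bar was made of miR-30a-5p and miR-30d-5p.

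The starts of the reads, which DROSHA sets in 5p strands and DICER in 3p strands, lay mostly at the annotated position in all 5 members that averaged 50 reads or more: the most frequent start was another one in 0 of 5, beside 71 of 476 untransfected miRNAs (14.9%). miR-30b-5p was the most uniform, with 99.8% to 99.9% of reads at the annotated start. miR-30e-5p was less so, at 92.9%, 93.3%, 94.0% and 93.5% in the empty vector, wild-type, mutant 1 and mutant 2 libraries. The medians of all untransfected miRNAs were 95.6% to 95.8%, so miR-30e-5p was not unusual among them, although it differed from its relatives: miR-30d-5p had 99.3% of reads at the annotated start in every library and miR-30a-5p 97.4% to 99%.

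Nearly all other reads of miR-30e-5p started 1 nt downstream. This form made up 6.94% of its reads with the empty vector (6.82 to 7.05), 6.57% in wild type (6.46 to 6.69), 5.88% in mutant 1 (5.79 to 5.98) and 6.34% in mutant 2 (6.25 to 6.44). No 2 of these intervals overlapped, with the empty vector the highest and mutant 1 the lowest, and the differences were under 1.5 percentage points. At 12340 to 14802 reads per library, the shifted form had more reads than miR-30e-3p. Of miR-30e-3p, 3.27% (2.93 to 3.64), 3.06% (2.68 to 3.48), 2.59% (2.26 to 2.97) and 2.88% (2.56 to 3.24) of reads had this start, in the same order of libraries, and of miR-30c-1-3p 6.26% (4.49 to 8.66), 4.06% (2.51 to 6.49), 2.35% (1.28 to 4.28) and 2.93% (1.78 to 4.78). In these strands too the share was highest with the empty vector and lowest in mutant 1, but most of their intervals overlapped. The same highest and lowest libraries were found for 46 of the 172 untransfected miRNAs that averaged 1000 reads or more (26.7%), a count made after the members' values were seen. Of miR-30b-5p, only 0.235%, 0.213%, 0.162% and 0.145% of reads had this start, with mutant 2 the lowest. miR-30b-3p went the other way on few reads. All of its 338 reads with the empty vector had the annotated start. The shifted start made up 0.400% in wild type, 1.85% in mutant 1 (5 of 270 reads) and 0.645% in mutant 2.

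A start shifted by 1 nt changes the seed. The most frequent form of miR-30e-5p and the most frequent shifted form are printed with bases 2 to 8 in capitals, as the genome reads them over those positions.
miR-30e-5p, annotated start: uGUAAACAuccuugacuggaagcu
miR-30e-5p, shifted start: gUAAACAUccuugacuggaagcu
The seed of the shifted form is UAAACAU. The shifted form kept the same 3p end as the unshifted one: 94.9% to 95.6% of the reads with the shifted start ended 2 nt past the annotated end, against 95.7% to 96.1% of those with the annotated start. The 2 forms were thus 23 and 24 nt long.

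**Figure D5:**
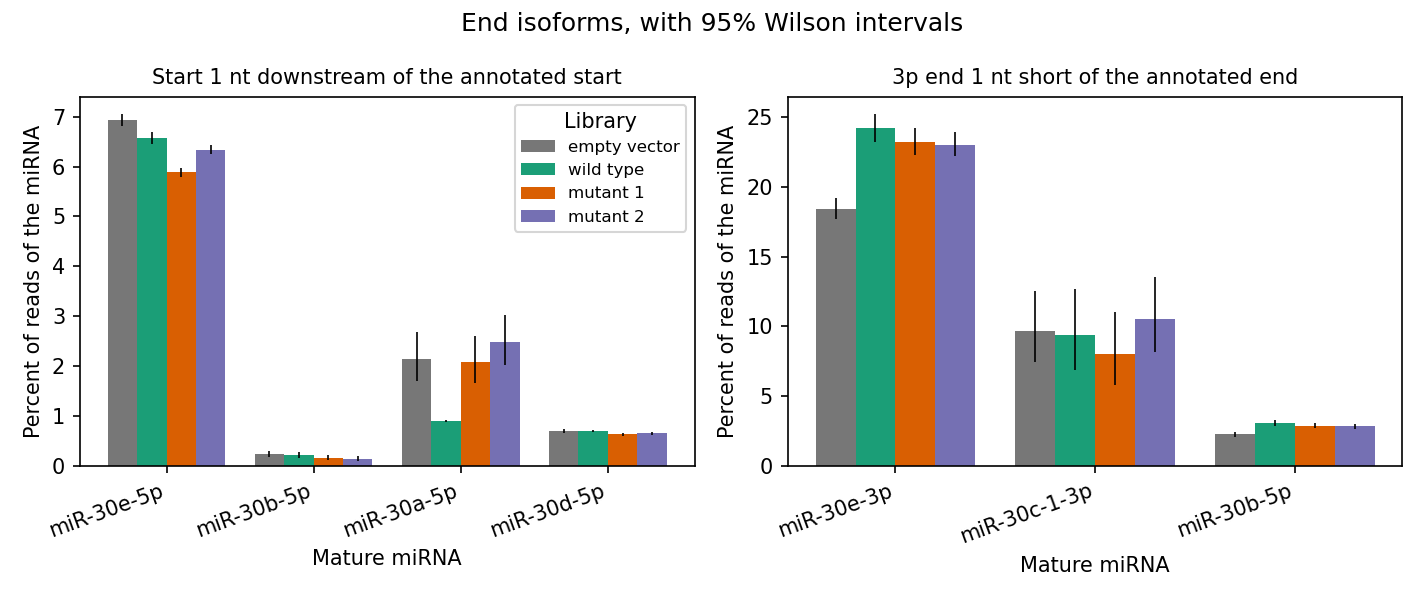
Percent of reads that start 1 nt downstream of the annotated start (left) and that end 1 nt short of the annotated 3p end (right), by miRNA and library, with 95% Wilson intervals for counting error. The shifted start was near 6% to 7% for miR-30e-5p and below 1% for miR-30b-5p and miR-30d-5p, and the shortened end of miR-30e-3p was least frequent with the empty vector.

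At the 3p end, 1 of 5 members had a most frequent end other than the annotated one, against 215 of 476 untransfected miRNAs (45.2%). This was miR-30e-5p. Its 24 nt form, which ends 2 nt past the annotated end, made up 89.0%, 89.2%, 90.3% and 89.6% of its reads in the empty vector, wild-type, mutant 1 and mutant 2 libraries, and over all starts 95.6% to 96.0% of reads ended there. Reads at the annotated end were only 0.466% to 0.536%. The most frequent forms of miR-30a-5p and miR-30d-5p also ended 2 nt past the annotation in every library. Reads were aligned with mismatches allowed at the 3p end, so that the last bases of a read need not be those of the genome.

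The other members mostly ended where the annotation does. The fully annotated form of miR-30b-5p made up 96.0%, 95.4%, 95.9% and 95.7% of its reads, the most even of the set. That of miR-30b-3p made up 91.7%, 86.0%, 89.6% and 89.4%, and that of miR-30c-1-3p 83.1%, 86.5%, 88.2% and 84.0%. With 250 to 527 reads per library, the intervals of these shares overlapped for each of the 2 strands.

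miR-30e-3p had the most mixed 3p end. Its annotated end held 77.9% of reads with the empty vector and 72.1%, 73.7% and 73.5% in the wild-type, mutant 1 and mutant 2 libraries. The rest was mostly 1 nt shorter, as in the following form.
miR-30e-3p, 1 nt shorter: cUUUCAGUcggauguuuacag
Reads that ended 1 nt short made up 18.4% with the empty vector (17.7 to 19.2), 24.2% in wild type (23.2 to 25.2), 23.2% in mutant 1 (22.3 to 24.2) and 23.0% in mutant 2 (22.2 to 23.9). The empty vector library was below the other 3, whose intervals overlapped. For miR-30b-5p the same 1 nt shortening was also least frequent with the empty vector, at 2.26% (2.08 to 2.46) against 3.08%, 2.88% and 2.84%. It was not so in the other members: miR-30e-5p had 0.164% with the empty vector against 0.157%, 0.127% and 0.142%, and miR-30b-3p had 3.25% against 6.40%, 2.59% and 3.23%. Among the 172 untransfected miRNAs that averaged 1000 reads or more, 42 (24.4%) had the lowest share of this form with the empty vector, miR-30e-3p and miR-30b-5p among them, a count made after their values were seen. For miR-30c-1-3p it was 9.68%, 9.39%, 8.0% and 10.5%, with intervals that overlapped.

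Over all end forms, the distance between libraries was taken as the percent of reads that would have to move to another form, for the 172 untransfected miRNAs that averaged 1000 reads or more. By construction 50% of these lie beyond the median. In wild type against the empty vector, 1 of the 3 members that entered was beyond it, miR-30e-3p at 5.96%, where the median was 2.15%. miR-30e-5p and miR-30b-5p were at 0.442% and 0.877%, below most of the 172. In mutant 1 against the wild-type library 0 of 3 were beyond the median of 4.08%: miR-30e-3p was at 2.14%, miR-30e-5p at 1.15% and miR-30b-5p at 0.493%. Against the empty vector, miR-30e-3p was at 4.93% in mutant 1 (median 4.31%) and at 4.65% in mutant 2 (median 2.75%). By starts alone, miR-30e-5p and miR-30e-3p were beyond the median in mutant 1 against wild type, at 0.717% and 0.462% where the median was 0.325%, and miR-30b-5p was at 0.0507%. Over all end forms, miR-30e-3p differed more between wild type and the empty vector than between mutant 1 and wild type.

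The untransfected miRNAs outside the family with the most similar pattern over the 4 libraries were found by the Euclidean distance between centred log2 levels, among 470 candidates. For miR-30e-5p they were miR-7854-3p (0.044), miR-21-5p (0.045) and miR-374a-3p (0.056), where the median distance was 0.41. For miR-30b-5p they were miR-4511 (0.046), miR-580-3p (0.054) and miR-660-5p (0.057), with a median of 0.36. The 3p strands shared their neighbours: miR-4664-3p and miR-147b-3p were among the 3 nearest of miR-30e-3p (0.018 and 0.055), of miR-30c-1-3p (0.044 and 0.047) and of miR-30b-3p (0.086 and 0.082). miR-6798-3p came next for miR-30e-3p (0.068) and miR-30c-1-3p (0.079), and miR-449c-5p was first for miR-30b-3p (0.076). Several neighbours were low: miR-4664-3p was at 6.34 to 8.37 RPM, miR-147b-3p at 4.92 to 6.65, miR-4511 at 3.89 to 4.25 and miR-7854-3p at 5.01 to 6.20. The distances take no account of counting error, which is large at such levels. The shared neighbours also restate the similar ratios of the 3p strands given above. These distances rest on 4 libraries, and they describe likeness in those libraries only.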

How the data were processed

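Total RNA had been extracted with TRIzol and sequenced with the TruSeq Small RNA kit, in 1 library per plasmid mixture. The authors trimmed adapters with cutadapt, kept reads of 18 to 26 nt with at least 90% of bases at a quality of 20, aligned them to hg38 with Bowtie2, and assigned unambiguous reads with mismatches only at the 3p end to miRBase v22 loci. The deposited counts are raw reads per isoform, by offsets of the 5p and 3p end from the annotation, in 12689 isoforms; a blank cell was read as 0. A 3p offset above 0 marks a shorter read in the table (all lengths then lie in the 18 to 26 nt window). Counts were summed per miRNA and divided by the reads of untransfected miRNAs, those that no deposited plasmid sequence encodes. Ratios have normal 95% intervals on the log scale and shares have Wilson intervals. A difference past 2-fold in a miRNA with a mean of at least 50 reads was counted. Named miRNAs are the members, their plasmid-encoded relatives, miR-16-5p, tissue markers, and the 3 nearest patterns per member. Alternative scales were all miRNA reads, miR-16-5p, edgeR TMM (4.0.16) and DESeq2 median of ratios (1.42.0), run in R 4.3.3; the rest was run in Python 3.11.15 after a test on simulated data. Loci came from GENCODE release 44 and sequences from RefSeq. The members and lists were chosen with earlier results of these data known.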

Additional observations from a re-analysis of the deposited data

How the results depend on the processing

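Of 53 alternative values for 13 results, all of them counts or shares, 42 kept the reported count or share and 11 moved. By starts alone in wild type against the empty vector the count stayed at 1, but the member beyond the median (0.256%) was miR-30e-5p (0.381%) in place of miR-30e-3p (0.243%). Scaled to miR-16-5p, 3 members passed 2-fold in wild type against the empty vector, 3 in mutant 1 and 5 in mutant 2, all downward, in place of 0, as did 43.7%, 57.1% and 78.8% of all 476 untransfected miRNAs in either direction. That scale contains a plasmid-derived miRNA in every library but the empty vector. Counting only reads at the annotated start gave miR-30b, miR-30c and miR-30e 52.5%, 10.1%, 57.4% and 56.5% of the family reads in the empty vector, wild-type, mutant 1 and mutant 2 libraries. Counting the mutant pri-mir-30a strand as family gave 27.3% in mutant 1. Members beyond the median end distance were 2 at a minimum of 200 reads in wild type against the empty vector, and, in mutant 1 against the wild-type library, 2 by starts alone and 1 at a minimum of 200 reads. Lowering the minimum to 10 reads added no member, since miR-30c-5p averages fewer. No paired analysis was possible because each condition has 1 library, so that differences between transfections are not covered by any interval. Depth limits miR-30c-5p and miR-30c-2-3p, which support no comparison, and leaves wide intervals for miR-30b-3p and miR-30c-1-3p.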
